A study of Drosophila melanogaster with 12 samples.

Results

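The transcripts of the 26S proteasome, the protease that degrades proteins tagged with ubiquitin, were followed in the body wall of Drosophila melanogaster larvae when Activin signaling was reduced or switched on. Members were chosen by gene name: rows named Rpn or Rpt with a number, rows whose name begins with Pros apart from Prosap, and the older names CG17331, Mov34 and Tbp-1, with a lethal-locus name for Prosbeta1. The rule found 45 of the 13650 rows in each deposited table. Of these, 32 rows stand for 31 distinct main subunits, and 13 rows are paralogs marked by T or R, or by a final letter, in their names. Main subunits, and parts of the complex, mean only these rows below. The subunit genes CG13349 (Rpn13) and CG13779 (Sem1) lie outside the rule. That lethal-locus name occurs in neither table, where the gene is listed as Prosbeta1.

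The proteasome consists of a barrel-shaped core particle, built from rings of alpha and beta subunits, and a regulatory particle that caps it. Alpha subunits form the gate of the barrel, and some beta subunits carry the proteolytic sites inside it. In the regulatory particle a ring of Rpt ATPases unfolds substrates and feeds them into the core, while Rpn subunits hold the particle together, bind ubiquitin chains and remove them. Genes for proteasome subunits are generally transcribed in a coordinated way, and in flies and mammals the Nrf-type factor Cnc and its relatives raise them together. Flies also have a second set of subunit genes that is known from the male germline. In larval muscle, as in other tissues, the proteasome is needed for protein turnover during growth.

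RNA was sequenced from carcass, the muscle and epidermis left after the gut had been taken out, of foraging larvae late in the third instar. There were 12 libraries in 4 groups of 3. The smox group had the genotype Smox(Smad2)F4/Y, a mutant allele of the Activin-branch Smad gene Smox over the Y chromosome, which makes these larvae male by genotype. The reference was the wild-type strain w1118, for which the labels state no sex. Larvae of both groups grew on apple juice plates with yeast paste, untreated. The baboACT group had the genotype tub-Gal80ts/+;MhcGal4/baboACT and made an activated Activin receptor, Baboon, under the muscle driver MhcGal4. Its reference, called MhcGal4 below, was tub-Gal80ts/+;MhcGal4/+. Both groups of that experiment carried the temperature-sensitive Gal4 inhibitor Gal80ts, ate standard vial food and were kept at 30 °C for 12 h before RNA isolation. The receptor was thus driven in muscle, while RNA came from muscle and epidermis together. The labels do not say whether several larvae were pooled for a library.

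Each deposited table gives 1 FPKM (fragments per kilobase of transcript, scaled to the mapped fragments of a library) per gene and group, so 0 columns hold single libraries. No spread between libraries, SD or test of this work can therefore stand beside a value, and read depth is unknown. A gene is written as having risen or fallen only if the q-value in the authors' deposited table was under 0.05. Nothing in the labels says that libraries of a group had separate larvae, and the spread behind q may be technical. The lowest p in either table was 5e-05, which goes with q = 0.000152 in the smox table and q = 0.000217 in the baboACT table of the authors' deposited values. All calls of main subunits below had that q, so q does not rank them. Fold changes are log2 ratios of the authors' FPKM with no pseudocount, and a gene counts as measured if it was tested by the authors, stood above 0 in both groups and had a mean of at least 1 FPKM. The experiments were tabulated separately, and levels are compared only within an experiment.

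Smox, the mutated gene, was at 23.9 FPKM in w1118 and fell to 1.40 FPKM in the mutant. The receptor gene babo rose from 13.2 FPKM in MhcGal4 to 15.6 FPKM in baboACT, and the sources used here do not say whether reads of the transgene count toward it. Of 10 muscle markers, 8 were measured in the smox experiment and 7 in the baboACT experiment, and of 8 epidermal markers 6 were measured in each. The muscle actin gene Act57B and the cuticle gene Lcp4 are listed at 0 in all groups, and Mhc and Mlc2 at 0 in 1 or more, so an FPKM of exactly 0 is reported here only as listed.

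The main subunits were among the more abundant transcripts of the carcass. In w1118 the 30 main rows above 0 ran from 133 FPKM (Rpn1) to 363 FPKM (CG17331), a range of 2.72-fold, and in MhcGal4 from 112 FPKM (Rpn3) to 286 FPKM (Pros25), a range of 2.55-fold. Each of them had a higher FPKM than at least 91.8% of measured genes in w1118 and 91.4% in MhcGal4. The remaining 2 main rows, Prosalpha1 and CG30382,Prosalpha1, are listed at 0 in all 4 groups. They lie side by side on 2R, at 3712997 to 3716181 and 3716562 to 3719291, in the authors' coordinates, whose build is not named. RefSeq names CG30382 Prosalpha1R, a copy of the alpha subunit gene Prosalpha1, and the sources used here do not say how reads shared by such copies were counted. No level can be given for this subunit.

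**Figure D1:**
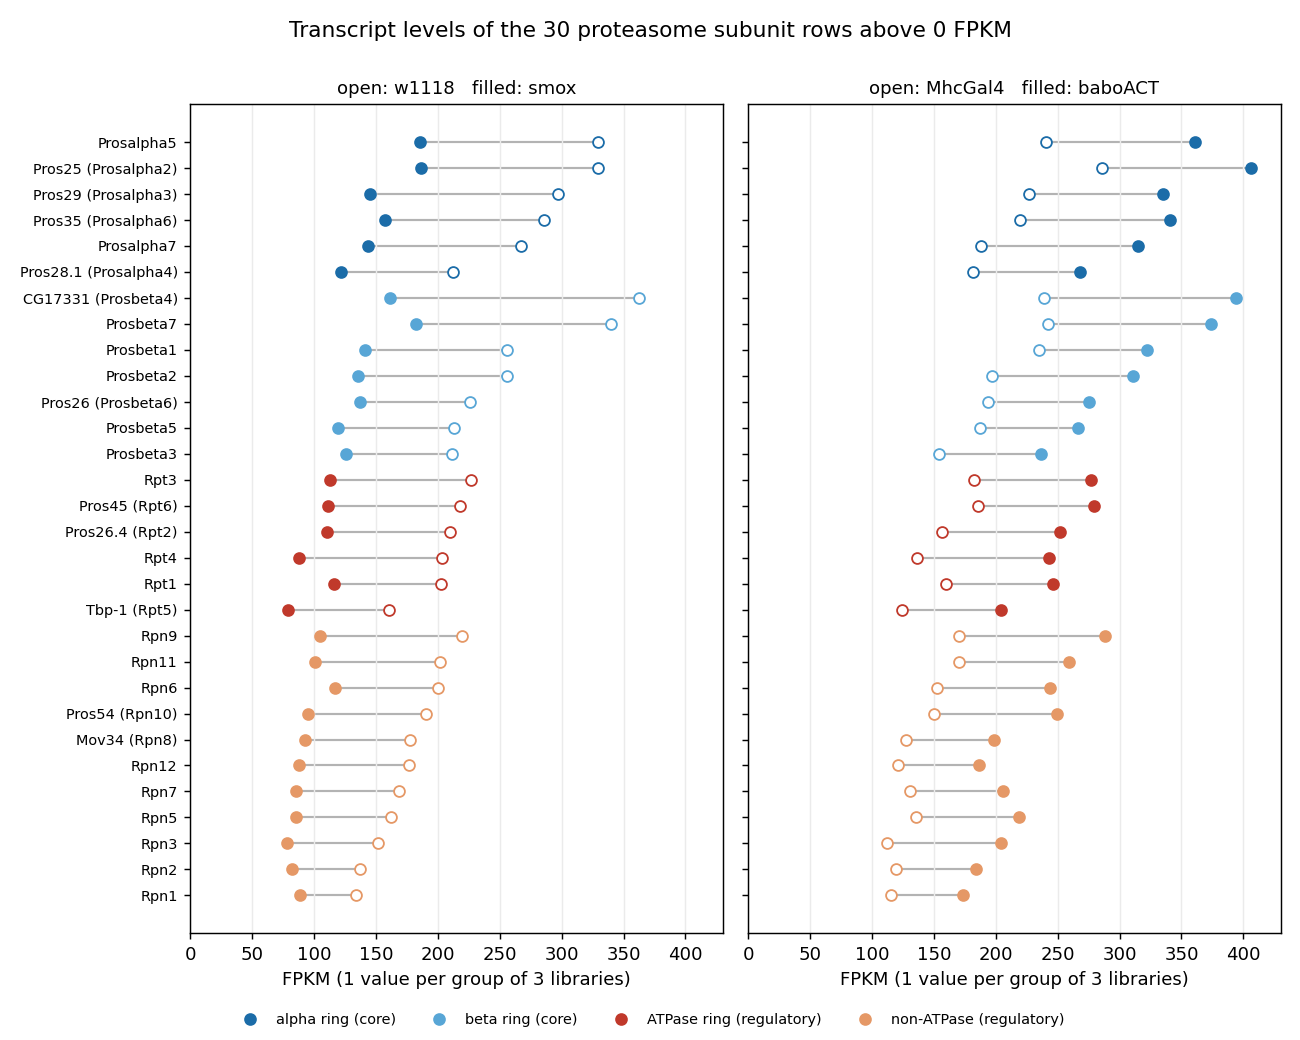
FPKM (horizontal axis, linear, 1 value per group) of the 30 main proteasome rows above 0, with the smox experiment at left and the baboACT experiment at right. Open circles are the reference groups and filled circles smox or baboACT. Each of the 30 filled circles lies left of its open circle in smox and right of it in baboACT. Names in parentheses are current RefSeq symbols.

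In smox carcasses every measured main subunit fell. All 30 were called lower, where 39.8% of all 7977 measured genes were called lower and 58.1% in either direction. Their log2 fold changes lay between -1.21 (Rpt4) and -0.59 (Rpn1), with a median of -0.92, a median ratio of 0.528. The median over all measured genes was -0.14, and only 5.54% of them lay below the main subunits' median. Together the main subunits made up 0.699% of the summed FPKM in w1118 and 0.371% in smox. Because whole carcasses were sequenced, fewer cells rich in these transcripts and less of the transcript per cell cannot be told apart.

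The alpha ring, the gate of the core, fell in all 6 measured subunits, and the median log2 fold change was -0.85. Prosalpha5 had the highest level of the ring in w1118, at 329.6 FPKM, and stood at 185 FPKM in smox. Pros25, the gene of subunit alpha 2, went from 329 to 186 FPKM. The furthest fall in the ring was in Pros29, the alpha 3 gene, from 297 to 145 FPKM (log2 fold change -1.03). The least was in Pros28.1, the alpha 4 gene, from 212 to 121 FPKM (-0.80). The remaining alpha subunits lay close together, with Pros35 going from 286 to 157 FPKM and Prosalpha7 from 267 to 144 FPKM.

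All 7 beta ring genes fell as well, with a median of -0.86. CG17331, known in RefSeq as Prosbeta4, encodes a beta subunit without a proteolytic site. It had the highest w1118 FPKM of the main subunits found by the naming rule, at 363. In smox it stood at 161 FPKM (-1.17), the furthest fall in the core particle. Its locus in the tables runs on 2L from 16731221 to 16732129 and overlaps no other row. The 3 genes of subunits with proteolytic sites moved by similar amounts. Prosbeta1, the caspase-like subunit, went from 256 to 141 FPKM (-0.86), Prosbeta2, the trypsin-like subunit, from 256 to 136 FPKM (-0.92), and Prosbeta5, the chymotrypsin-like subunit, from 213 to 119.6 FPKM (-0.83). Among the other beta subunits, Prosbeta7 went from 340.1 to 182 FPKM, Pros26, the beta 6 gene, from 226 to 137 FPKM (-0.72), and Prosbeta3 from 211 to 126 FPKM (-0.74).

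The ATPase ring had the lowest median of the 4 parts in smox, -0.99 over 6 genes. Rpt4, on the X chromosome from 6182156 to 6185276, fell furthest of all main subunits, from 203 to 87.6 FPKM, a ratio of 0.431. Tbp-1, the gene of ATPase Rpt5, went from 161 to 78.9 FPKM and Rpt3, the ATPase with the highest level in w1118, from 227 to 113 FPKM. Pros45, which encodes Rpt6, went from 218 to 111 FPKM, and Pros26.4, which encodes Rpt2, from 209.5 to 110.0 FPKM. The row CG17985,Rpt1, whose reads may come from either gene, changed least in the ring, from 202 to 116 FPKM (-0.80).

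Of the 11 non-ATPase genes of the regulatory particle, all fell (median -0.96), and this part held the widest range. The scaffold subunits of the base changed least: Rpn1 went from 133 to 88.9 FPKM (-0.59) and Rpn2 from 137 to 82.5 FPKM (-0.73). Pros54, the gene of the ubiquitin receptor Rpn10, went from 190.0 to 94.8 FPKM. In the lid, Rpn11, which cuts ubiquitin chains from the substrate, went from 202 to 101 FPKM. Its partner Mov34, or Rpn8, went from 177 to 92.8 FPKM (-0.93). Rpn9 had the highest w1118 level of the lid genes found by the naming rule and fell furthest in this part, from 219.6 to 105 FPKM (-1.07). Rpn3, Rpn5 and Rpn7, further lid subunits, went from 151 to 78.0 FPKM, from 162 to 84.9 FPKM and from 169 to 85.7 FPKM. The other lid genes lay between Rpn12, at 177 and 88.0 FPKM (-1.01), and Rpn6, at 200.3 and 117 FPKM (-0.77).

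With activated Baboon every measured main subunit rose. All 30 were called higher, where 29.1% of all 8018 measured genes were called higher and 43.8% in either direction. Log2 fold changes lay between 0.45 (Prosbeta1) and 0.87 (Rpn3), with a median of 0.63, a median ratio of 1.55. The median over all measured genes was 0.08, and 9.35% of measured genes lay above the main subunits' median. The main subunits' share of the summed FPKM was 0.694% in MhcGal4 and 0.999% in baboACT.

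In the core particle, alpha ring genes rose by 0.58 at the median (log2) and beta ring genes by 0.61. Pros25 reached the highest level of the main subunits found by the naming rule, from 286 FPKM in MhcGal4 to 406 FPKM in baboACT (0.51). The furthest rise of the core was in Prosalpha7, from 188 to 315 FPKM (0.74), followed by CG17331, from 239 to 394 FPKM (0.72). Of the subunits with proteolytic sites, Prosbeta2 went from 197 to 311 FPKM (0.66), Prosbeta5 from 187 to 266 FPKM (0.51) and Prosbeta1 from 235 to 322 FPKM (0.45). Prosbeta1 thus changed least of the main subunits found by the naming rule in this experiment, while its fall in smox lay at the median of the beta ring. Prosbeta3 had the lowest level of the core in MhcGal4, at 154 FPKM, and stood at 236 FPKM in baboACT. The remaining core genes had log2 fold changes between those of Prosbeta1 and CG17331. Among them Pros29 went from 227 to 335 FPKM, Pros28.1 from 182 to 268 FPKM, Prosalpha5 from 241 to 361 FPKM and Pros35 from 219.7 to 341 FPKM. In the beta ring Pros26 went from 194 to 275 FPKM and Prosbeta7 from 242 to 374 FPKM.

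In the regulatory particle the ATPase ring and the non-ATPase genes rose by similar amounts, with medians of 0.66 each. Rpn3, a lid subunit on 2L from 19051830 to 19053681, had the lowest level of the main subunits found by the naming rule in MhcGal4 and in smox. It rose furthest, from 112 to 204 FPKM. Rpt4 followed, from 136 to 243 FPKM (0.84), and then Rpn9, from 170.5 to 288 FPKM (0.76). Pros54, the ubiquitin receptor gene, went from 149.9 to 249 FPKM (0.73), and Tbp-1 from 124 to 204 FPKM (0.71). Among regulatory genes found by the naming rule, rises were smallest in Pros45, from 185 to 279 FPKM, and in Rpn1, from 115 to 173 FPKM. Each had a log2 fold change of 0.59. The deubiquitinase gene Rpn11 went from 170.3 to 259 FPKM (0.61). The other ATPase genes kept within the range of the ring, with CG17985,Rpt1 at 159.5 and 246 FPKM, Pros26.4 at 156 and 252 FPKM and Rpt3 at 183 and 277 FPKM. Of the other non-ATPase genes, Rpn2 went from 119.6 to 184 FPKM, Rpn5 from 136 to 219 FPKM and Rpn6 from 152 to 243 FPKM. Rpn7 went from 131 to 206 FPKM, Mov34 from 128 to 198 FPKM and Rpn12 from 121 to 187 FPKM.

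The median of the regulatory particle genes lay further from 0 than that of the core genes in both experiments. In smox the median was -0.86 for 13 core genes and -0.97 for 17 regulatory genes, a difference of 0.11, and in baboACT it was 0.59 and 0.66, a difference of -0.07. Within each part the genes were spread with an SD over genes of 0.12 and 0.14 in smox and 0.087 and 0.082 in baboACT, and their ranges overlapped. Genes are not replicates, and the difference of the medians was not tested. At the median, core genes found by the naming rule were higher per length than regulatory ones in all groups. Single genes of the particles overlapped in level in w1118, MhcGal4 and baboACT. The lid gene CG13779, outside the rule, stood above every measured core gene in all groups. The median FPKM was 267 for core and 190.0 for regulatory genes in w1118, 144 and 92.8 in smox, 219.7 and 136 in MhcGal4, and 322 and 243 in baboACT.

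**Figure D2:**
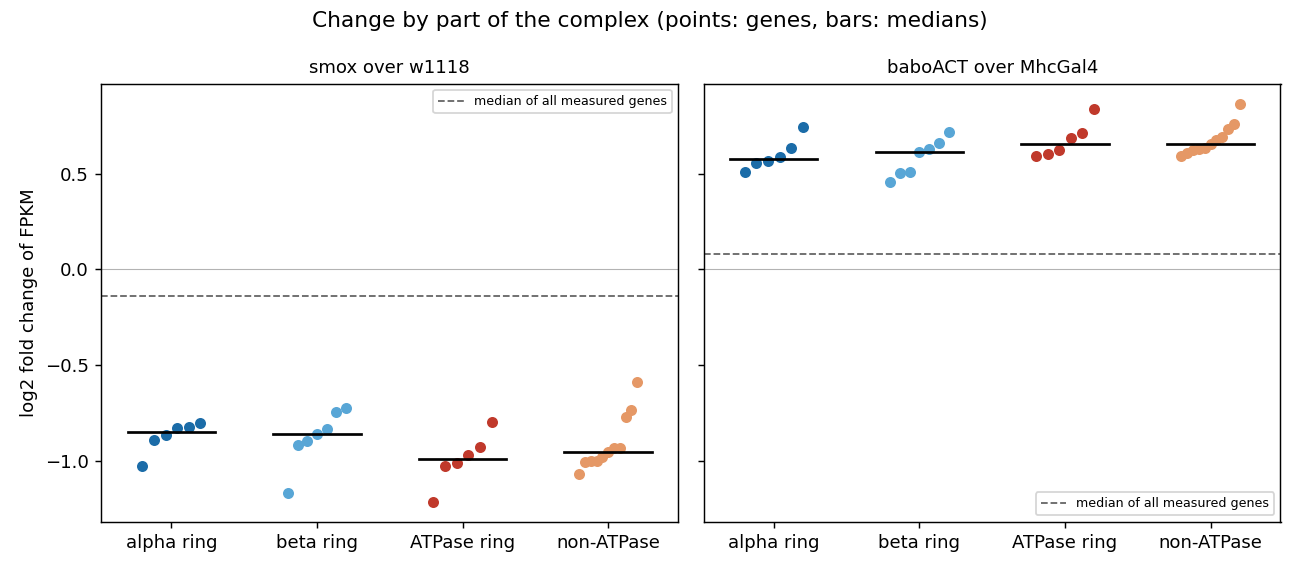
Log2 fold change of FPKM (vertical axis) of each measured main subunit by part of the complex, for smox over w1118 at left and baboACT over MhcGal4 at right; black bars are medians over genes and the dashed line is the median of all measured genes. All points lie below the dashed line of -0.14 in smox and above that of 0.08 in baboACT, and the parts overlap.

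The order of the subunits by level was largely kept. Across the 30 main subunits, Spearman's rho between the levels of both groups was 0.92 in the smox experiment and 0.97 in the baboACT experiment, a description over genes of 1 complex with fixed transcript lengths. The ratio of the highest to the lowest main subunit was 2.38 in smox and 2.34 in baboACT. In smox, 20 of the 30 stood below 133 FPKM, the lowest main subunit of w1118.

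The same 30 genes were called lower in smox and higher in baboACT, where 19.4% of 7768 genes measured in both experiments were. The experiments have no library in common. Across the 30 genes larger falls in smox went only in part with larger rises in baboACT, with Pearson's r = -0.54 and Spearman's rho = -0.51. Rpt4 was at or near the far end of both, with -1.21 and 0.84. Prosbeta1 changed least of the 30 in baboACT (0.45), followed by Pros26, Pros25 and Prosbeta5 at 0.51 each. Without Rpt4 and CG17331 Pearson's r was -0.41, and over all 7768 genes it was -0.23. These values describe genes of 1 complex that share libraries and scaling.

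**Figure D3:**
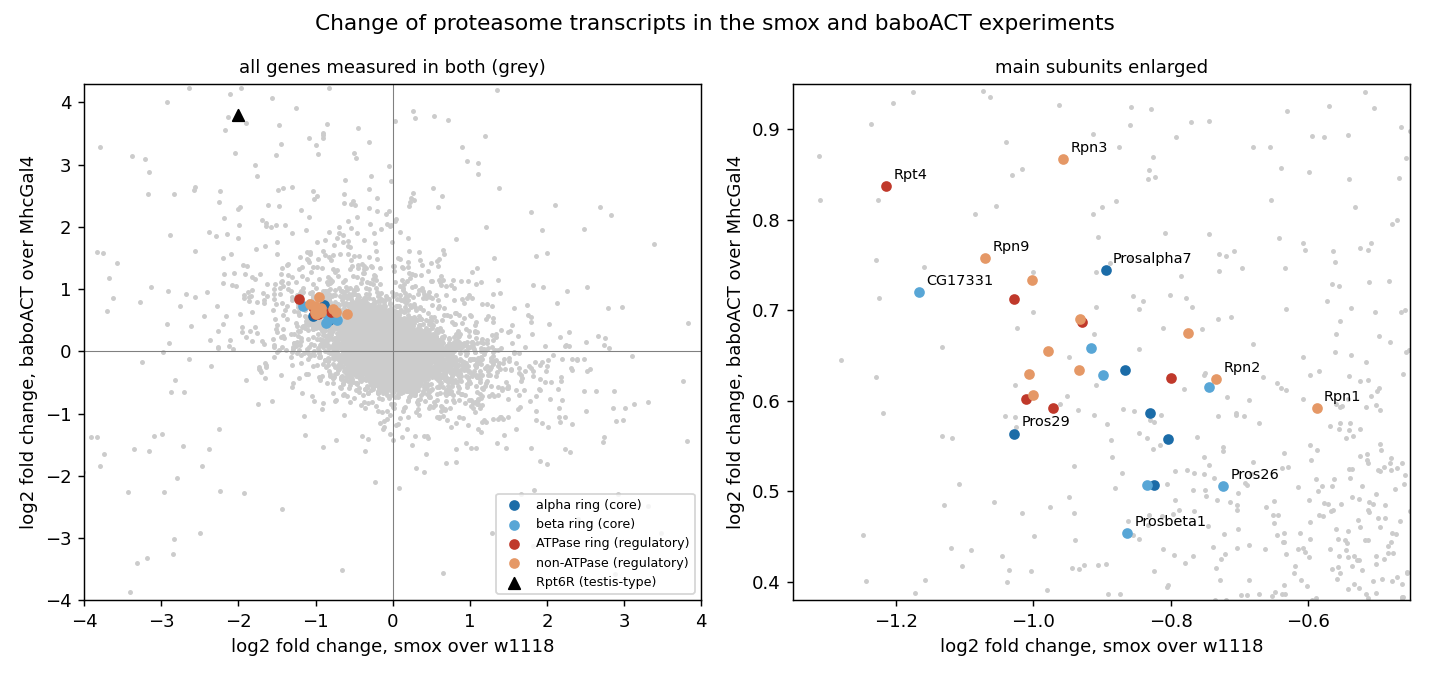
Log2 fold change in smox over w1118 (horizontal axis) against that in baboACT over MhcGal4 (vertical axis); grey points are genes measured in both experiments, colored points main proteasome subunits by part, and the triangle is Rpt6R. Main subunits form a tight cluster between -1.21 and -0.59 on the horizontal and 0.45 and 0.87 on the vertical axis, which the right panel enlarges; genes beyond the axes of the left panel are not shown, and Rpt6R lies at -2.01 and 3.79.

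The main subunit genes were not grouped at 1 place in the genome. The 32 rows lie on 2R (10), 3R (9), 3L (5), 2L (4) and X (4). The X-linked genes Rpt3, Rpt4, Pros45 and Pros28.1 had a median of -0.99 in smox, where larvae were male by genotype, and 0.60 in baboACT, and the 26 autosomal genes had -0.91 and 0.63. Neighboring members are Rpn9, ending on 3R at 19578552, and Tbp-1, starting at 19578600, with a gap of 47 bases. Rpn9 and Tbp-1 went -1.07 and -1.03 in smox and 0.76 and 0.71 in baboACT. For 12 of the 30 the locus overlaps another row, and reads of overlapping genes may have been shared. The other 18 had medians of -0.92 in smox and 0.63 in baboACT.

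Of the 13 testis-type paralogs, 9 are listed at 0 in all 4 groups: Prosalpha3T, Pros28.1A, Prosalpha6T, Prosbeta2R1, Prosbeta4R1, the row Or23a,Prosbeta4R2, Prosbeta5R, Rpt4R and Rpn12R. Pros28.1B and Prosbeta2R2 were above 0 in some groups and never reached 1 FPKM, with highest values of 0.141 FPKM in MhcGal4 and 0.0546 FPKM in baboACT. The remaining 2, Rpt6R and Rpt3R, both encode versions of regulatory particle ATPases. Since Act57B and Prosalpha1 are also listed at 0, these entries at 0 give no level.

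Rpt6R, a paralog of the ATPase gene Pros45, changed more than any main subunit in both experiments. Its level was 5.34 FPKM in w1118, 1.33 FPKM in smox, 0.654 FPKM in MhcGal4 and 9.05 FPKM in baboACT. Its log2 fold change was -2.01 in smox and 3.79 in baboACT, with q = 0.000152 and q = 0.000217 in the authors' deposited tables. Relative to Pros45, Rpt6R came to 2.45% in w1118 and 1.19% in smox, and to 0.353% in MhcGal4 and 3.24% in baboACT. The gene lies on 3R from 26407920 to 26409419, overlaps no other row, and passed the minimum of 1 FPKM in baboACT only through the group where it was high. With a pseudocount of 1 FPKM its log2 fold change was -1.45 in smox and 2.60 in baboACT.

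Rpt3R, a paralog of the ATPase gene Rpt3, had 1.08 FPKM in w1118 against 0.759 in smox. Its mean there was under 1 FPKM, and the authors' deposited table gives q = 0.178. In the other experiment it rose from 0.716 FPKM in MhcGal4 to 1.32 FPKM in baboACT, 0.88 on the log2 scale, with q = 0.0304 by the authors' deposited table. It reached the minimum there only through the group where it was higher, and it was not called at a q under 0.01. With a pseudocount of 1 FPKM the log2 fold change of Rpt3R was -0.24 in smox and 0.43 in baboACT. Rpt3R came to between 0.392% and 0.674% of Rpt3 in the 4 groups.

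Because smox larvae were male by genotype, 15 germ cell genes, listed for the testis but not all particular to males, were set beside the paralogs. In each experiment 12 of them had a mean under 1 FPKM, among them the spermatocyte regulators aly, comr, topi, tomb, can, sa, mia and nht, of which comr and nht are listed at 0 in all groups. The summed level of the 15 was 30.9 and 26.2 FPKM in w1118 and smox, and 40.4 and 28.3 FPKM in MhcGal4 and baboACT. Most of that was bol, a regulator of meiotic entry, at between 19.6 and 25.8 FPKM and called in neither experiment. The early germ cell gene bam had the same directions as Rpt6R. In w1118 bam had 6.36 FPKM and in smox 0.223 FPKM, a called fall, and it stood at 0.539 FPKM in MhcGal4 and 2.64 FPKM in baboACT, where it was not called (q = 0.0941 by the authors' deposited values). The sperm gene Mst87F had the opposite directions, with a rise from 2.11 to 5.12 FPKM in smox and a fall from 11.8 to 1.56 FPKM in baboACT. The part of germ cells in the values of Rpt6R and Rpt3R was not tested.

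A further 3 genes of these families, outside the naming rule, were added from their RefSeq names. The lid gene CG13779, or Sem1, is also outside the rule and is given below with the proteasome-bound factors. CG13349, the gene of the ubiquitin receptor Rpn13, fell from 146 to 77.6 FPKM in smox (log2 fold change -0.91) and rose from 114 to 174 FPKM in baboACT (0.62), close to the medians of the main subunits. CG6789, a paralog of Rpn13, is listed at 0 in all groups. CG31742, a paralog of Prosbeta5, is listed at 0 except in baboACT, at 0.0274 FPKM.

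Genes that feed or serve the proteasome, with the lid subunit gene Sem1 among those listed, mostly moved with it, by smaller amounts. Of 50 such genes in 6 lists, all measured, 37 fell and 5 rose in smox, with a median of -0.34, and 35 rose and 1 fell in baboACT, with a median of 0.32. The backgrounds are the 39.8% of measured genes called lower in smox and the 29.1% called higher in baboACT, given above, with 18.4% called higher in smox and 14.7% lower in baboACT.

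Among 8 factors that bind or assemble the proteasome, 6 fell in smox and 6 rose in baboACT. Pomp, the maturation factor of the core, went from 168 to 89.3 FPKM in smox (-0.91) and from 121 to 193 FPKM in baboACT (0.67). The deubiquitinase gene CG5384, or Usp14, went from 141 to 75.7 FPKM (-0.90) and from 115 to 202 FPKM (0.81). The other proteasome-bound deubiquitinase, listed as Uch-L3 and known in RefSeq as Uch-L5, went from 72.4 to 43.6 FPKM (-0.73) and from 53.7 to 75.5 FPKM (0.49). The small lid gene CG13779, or Sem1, went from 387 to 222 FPKM (-0.80) and from 424 to 559 FPKM (0.40). It encodes a subunit outside the naming rule and is counted among these 8. CG4420, or rngo, a Ddi1-type ubiquitin shuttle, fell further than any main subunit in smox, from 139 to 48.9 FPKM (-1.50), and rose from 146 to 182 FPKM in baboACT (0.32, q = 0.000953 in the authors' deposited table). CG8858, related to the adaptor Ecm29, went from 10.8 to 9.06 FPKM (-0.26, q = 0.000429) and from 9.55 to 12.7 FPKM (0.41), by the authors' deposited tables.

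The alternative activator and a regulator of the core were not called lower in smox or higher in baboACT. REG, a PA28-type activator that opens the core without the regulatory particle, had 40.3 FPKM in w1118 against 38.2 in smox (q = 0.198 by the authors' deposited table). With activated Baboon REG fell from 59.7 to 48.8 FPKM (-0.29, q = 0.000782 by the authors' deposited table) and was the 1 gene of the 50 that fell there. CG8979, or PI31, stood at 38.5 and 30.4 FPKM in smox (q = 0.0542) and at 34.2 and 41.8 FPKM in baboACT (q = 0.282), and was called in neither of the authors' deposited tables.

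Of 8 genes for the p97 segregase, its cofactors and ubiquitin shuttles, 7 fell in smox and 7 rose in baboACT. TER94, the p97 gene, went from 239 to 142 FPKM in smox (-0.75) and from 222 to 356 FPKM in baboACT (0.68). Rad23, a shuttle that carries ubiquitinated proteins to the proteasome, went from 138 to 83.1 FPKM (-0.73) and from 113 to 189.8 FPKM (0.74). The exception was ref(2)P, the p62 receptor of selective autophagy, which rose from 80.7 to 114 FPKM in smox (0.49) and stood at 102 and 112 FPKM in baboACT (q = 0.218 in the authors' deposited table).

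The polyubiquitin genes, the only ubiquitin-coding genes listed, went another way in smox. The polyubiquitin gene Ubi-p5E rose from 138 to 208 FPKM (0.59) and Ubi-p63E from 117 to 141 FPKM (0.27), the only rises among 10 genes for ubiquitin, its activating enzyme and conjugating enzymes, of which 7 fell. In baboACT Ubi-p63E rose from 75.1 to 102 FPKM (0.45), while Ubi-p5E stood at 277 and 256 FPKM (q = 0.288 in the authors' deposited table), and 6 of the 10 rose in all. Of 14 genes for ubiquitin ligases or their subunits and adaptors, 10 fell and 1 rose in smox and 9 rose in baboACT. In baboACT the cullin gene Cul-5 went from 7.40 to 18.7 FPKM (1.34) and the F-box gene slmb from 17.5 to 30.6 FPKM (0.80). Of 6 other deubiquitinase genes, 5 fell and 1 rose in smox, and 4 rose in baboACT.

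Among genes known to regulate proteasome transcription, cnc, the fly Nrf-type factor, fell from 83.2 to 56.7 FPKM in smox (-0.55) and rose from 74.6 to 99.1 FPKM in baboACT (0.41). Its locus in the tables also holds fzo. Its partner maf-S went from 36.9 to 29.9 FPKM in smox (-0.31, q = 0.00188 in the authors' deposited table) and from 43.7 to 59.2 FPKM in baboACT (0.44). Keap1, which restrains Cnc, stood at 4.20 and 4.52 FPKM in smox (q = 0.396 in the authors' deposited table) and rose from 4.13 to 5.72 FPKM in baboACT (0.47). Pngl, the fly peptide N-glycanase, whose relatives process Nrf1 in mammals, stood at 25.8 and 25.6 FPKM in smox and 28.2 and 32.1 FPKM in baboACT and was called in neither.

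**Figure D4:**
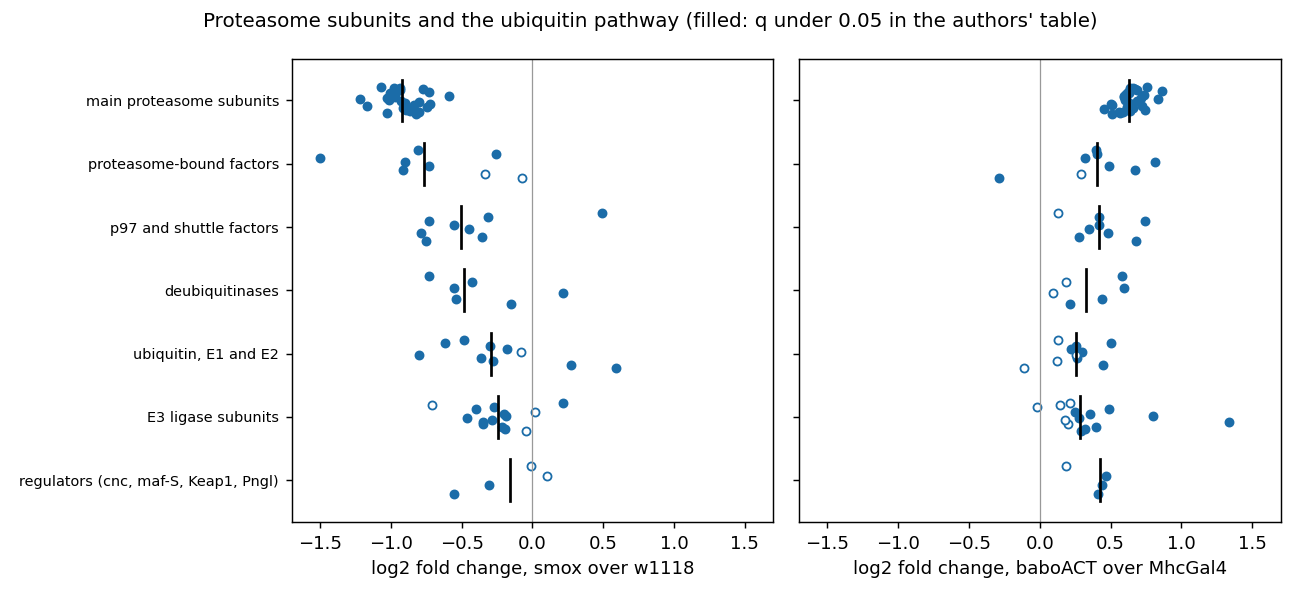
Log2 fold change (horizontal axis) of main proteasome subunits and of 6 lists of ubiquitin pathway genes, for smox at left and baboACT at right; filled points have q under 0.05 in the authors' table, open points do not, and black bars are medians. The main subunits have the lowest median in smox (-0.92) and the highest in baboACT (0.63). Right of 0 in smox stand the polyubiquitin genes, ref(2)P, faf and CG42593, all filled, and Keap1 and hyd, both open.

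Markers of other tissues, and of muscle and epidermis, differed between the groups as well. The shares of all measured genes called were 39.8% lower and 18.4% higher in smox, and 14.7% lower and 29.1% higher in baboACT. The summed level of 6 salivary glue genes was 495 FPKM in w1118 and 31.4 in smox, and 52.7 in MhcGal4 and 2098 in baboACT, the same directions as the proteasome genes and by much larger ratios, with none of the 6 at 0. Of the glue genes, 5 of 5 measured fell in smox and 6 of 6 rose in baboACT. The sum of 6 midgut genes was 436 FPKM in w1118 and 52.4 in smox, and 380.5 in MhcGal4 and 124 in baboACT, with 5 of the 6 called lower in smox and 2 in baboACT. That of 6 fat body genes was 861 and 1905 FPKM, and 1394 and 722 FPKM, in the same order. Of these, 5 rose and 1 fell in smox, and 4 fell and 1 rose in baboACT. The storage protein receptor gene Fbp1 had the directions of the proteasome genes, with 66.7 and 31.1 FPKM in w1118 and smox and 10.4 and 28.8 FPKM in MhcGal4 and baboACT. For 5 hemocyte genes the sum was 106 and 99.2 FPKM, and 72.6 and 57.1 FPKM, and for 4 neuronal genes 6.46 and 7.82 FPKM, and 7.32 and 5.98 FPKM. Of the hemocyte genes 4 fell and 1 rose in smox, and 2 fell and 1 rose in baboACT, and the 3 measured neuronal genes had q of 0.05 or more in both of the authors' deposited tables. Muscle markers went 3 up and 2 down among 8 measured in smox. In baboACT 0 went up and 6 down among 7, although the muscle sum rose there with Mhc and Mlc2 listed at 0 in MhcGal4. Epidermal markers went 2 up and 4 down among 6 in smox, and 3 up and 0 down among 6 in baboACT. Their largest changes were in Cpr49Ac and Ddc. Cpr49Ac went from 3333 to 1131 FPKM in smox (-1.56) and from 242 to 4041 FPKM in baboACT (4.06). Ddc went from 239 to 135 FPKM in smox (-0.83) and from 21.4 to 400 FPKM in baboACT (4.23). The part of these tissues in the proteasome values was not tested.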

How the data were processed

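RNA of 12 carcass libraries was sequenced by the authors. Per the submitters' processing notes, Cufflinks and Cuffdiff were used, with no versions; the sources used here do not give the aligner, annotation, strandedness or build. Per the file headers, each of the 2 deposited tables holds 1 FPKM per group, a test statistic (a score with no fixed range), a p-value and a q-value. The authors' deposited log2 fold change was not used. How the authors pooled and scaled the 3 libraries of a group is not given.

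Log2 ratios, medians and counts were computed from the deposited FPKM with Python 3.11.15, pandas 2.3.3 and scipy 1.17.1. Measured genes were tested by the authors, above 0 FPKM in both groups, named once and at least 1 FPKM on average. The calculations were tested on simulated data. The limma fit needs values per library and was not made. Of 44 member names, all 44 matched a RefSeq symbol or synonym (Release 6 table, used for names). Starts count from 0 in the tables, so 1 was added: the deposited end minus start equaled the annotated length for 1179 of 9919 genes matched by symbol, and was 1 short for 114.

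Members, gene lists and tests were chosen with earlier results of these data known. Every member was accounted for; of the pathway lists, the genes named were all proteasome-bound factors and regulators and, per experiment and direction, the 3 called genes with the largest change. TER94, Rad23 and CG13349 were named after their values were seen. Alternatives were another q threshold, no filter, a pseudocount, other scalings and leaving out rows with several names or overlaps. Without values per library or counts, depth is unknown and no interval is given.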

Additional observations from a re-analysis of the deposited data

How the results depend on the processing

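The counts of 30 main subunits called lower in smox and 30 called higher in baboACT were the same at a q under 0.01 and with no filter on low values, and 29 in each without the row that names several genes. Centering on the median gene moved the main subunits' median to -0.78 in smox and 0.55 in baboACT, and quantile normalization moved it to -0.85 and 0.48. A pseudocount of 1 FPKM, no filter, or only members without an overlapping row (chosen after seeing the data) left these medians within rounding. The core minus regulatory difference kept its direction under each alternative. It was 0.080 in smox and -0.051 in baboACT with quantile normalization, 0.090 and -0.043 for members without an overlapping row, and -0.079 in baboACT without the row that names several genes. The cause of these shifts was not tested. At a q under 0.01, a threshold added after seeing the data, 1 testis-type paralog (Rpt6R) was called in baboACT in place of 2, and ubiquitin pathway calls were 35 lower and 4 higher in smox and 31 higher and 1 lower in baboACT. No paired analysis was possible because the tables hold no values per library, and leaving out replicates was not possible for the same reason. FPKM carries no depth, so values near 0, such as those of the testis-type paralogs, have no known precision.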
